A study of Marchantia polymorpha with 9 samples.

Results

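A set of 57 genes of the liverwort Marchantia polymorpha was selected on measured transcript levels: the genes were at least 2-fold lower in thalli labelled KO than in WT, while in thalli labelled OX they stayed near WT. They are 57 of the 19287 gene IDs in the count table. Values are CPM, counts scaled to a common library total, averaged over 3 libraries per genotype, and ratios are log2 after adding 0.1 CPM to each mean. A member had a WT mean of at least 1 CPM, a log2 KO/WT of -1 or less, a log2 OX/WT between -0.585 and 0.585 (1.5-fold either way), and all KO libraries below all WT libraries. IDs of the Y chromosome and of scaffolds with fewer than 3 gene IDs were left out by the rule, which kept 18596 IDs, 12303 of them with at least 1 CPM in WT. The values that chose the members are described below. The KO against WT, OX against WT and OX against KO contrasts were fitted for all genes, but the members were chosen on the same libraries, so their calls, adjusted p-values and counts describe how firmly each was measured and support nothing about the set.

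The series concerns a land plant lineage of MYB transcription factors related to MIXTA and its place in the history of the cuticle. RNA was sequenced from whole thalli, the flat green plant body, at 10 days of age. The plants, male and of the Cambridge strain, grew from gemmae, and WT, OX and KO each had 3 biological replicates. WT stands for wild type, and OX and KO were taken to mean overexpression and knockout; the labels name neither the altered gene nor a promoter or allele. The sample titles name no line, so a difference between genotypes and one between lines cannot be told apart. In bulk thalli, fewer cells of a type and less RNA per cell cannot be told apart either. Library totals lay between 44802998 and 57696744 counts, the lowest in WT replicate 2.

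As background, MYB proteins are transcription factors that bind DNA through a conserved repeat domain. MIXTA and its relatives in flowering plants shape the outgrowth of epidermal cells, and several of them switch on genes for cutin and wax, the lipids of the cuticle that seals the plant surface. In the liverwort thallus the cuticle covers an epidermis that is pierced by air pores over chambers of green cells. The deposited table does not pair its IDs with names, and 0 of the 19287 IDs matched the name table used here, so members are given by ID with no role, and whether any of them belongs to cuticle synthesis is not known.

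The summed level of the 57 members was 1266, 1264 and 1330 CPM in the WT libraries and 1584, 1524 and 1606 CPM in OX. In KO it was 418, 424 and 444 CPM. The rule fixed in advance that KO lay below WT, and largely that it lay below OX, so nothing is read from this gap. The replicates of each genotype lay close together. The 4 members with most counts made up 48.7% of the WT sum. A member was left with a median of 33.7% of its WT level in KO, and the median log2 KO/WT was -1.51 (-1.59, -1.62 and -1.42 in KO replicates 1 to 3).

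**Figure D1:**
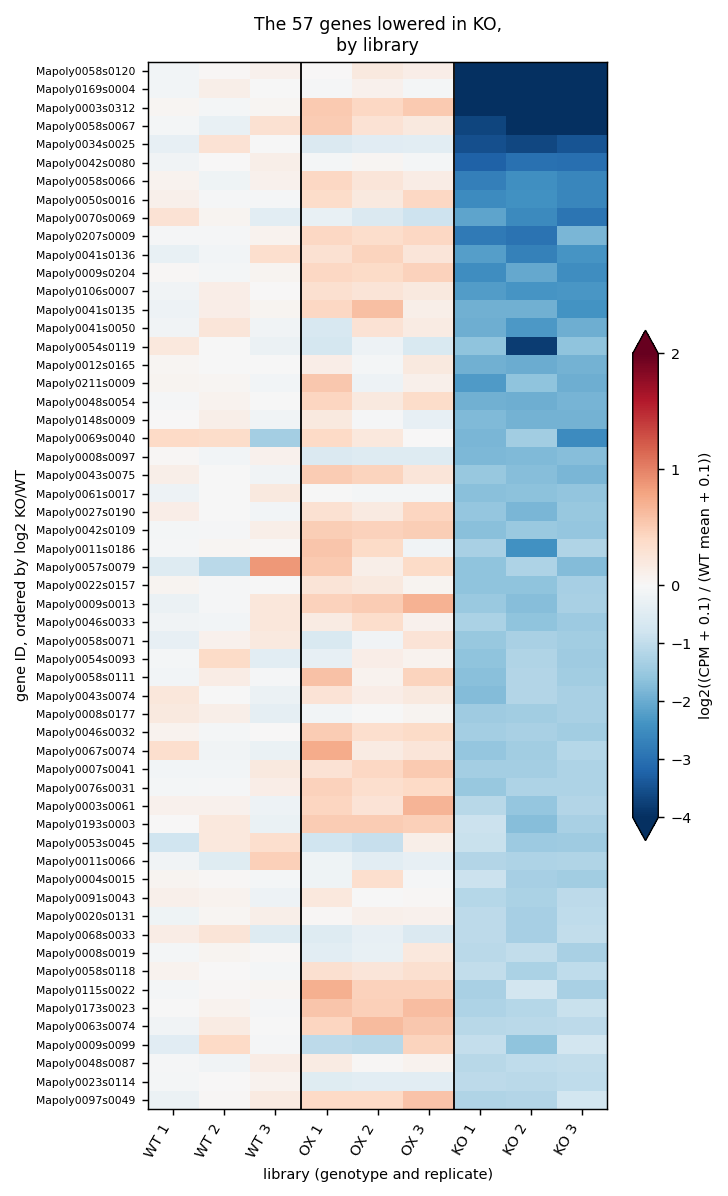
Level of each of the 57 members (rows, ordered by log2 KO/WT) in each of the 9 libraries (columns), as log2 of CPM + 0.1 over the WT mean + 0.1; the colour steps differ below and above 0 and values under -4 share the darkest blue. The 3 KO columns are blue for every member, while the OX columns range from pale blue to pale red.

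Most members were lowered in part. In 32 of the 57, log2 KO/WT corresponded to a fall of less than 3-fold, 25 were at least 3-fold lower, 16 at least 4-fold, 6 at least 8-fold and 3 at least 16-fold. On the rule's scale, depth of the fall did not follow the number of counts in a simple way. The median log2 KO/WT was -1.43 for the 20 members with a WT mean under 5 CPM, -1.59 for the 26 between 5 and 20 CPM and -1.56 for the 11 at 20 CPM or more. Of the 16 members at least 4-fold lower, 5, 9 and 2 fell in these classes. The 0.1 CPM added to each mean pulls ratios towards 0 most where counts are few. A smaller fall in the lowest class is therefore not shown. Mapoly0054s0119, for example, was at -2.05 by the rule and at -2.43 in the edgeR fit. CPM is not corrected for gene length, so these classes reflect counting support and not transcript numbers. Pairs of reads summed over the WT libraries ran from 86 to 18227 per member, and in KO 12 members had fewer than 50 pairs.

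Members near loss of signal were few. Mapoly0058s0120 had 37.7, 41.8 and 43.5 CPM in the WT libraries, 41.0, 47.1 and 44.8 CPM in OX, and 0.244, 0.139 and 0.174 CPM in KO. WT and OX overlapped, whereas KO retained 0.453% of the WT mean, as 16 read pairs against 3263. The ratio of the summed pairs, WT over KO, each divided by the genotype's library totals, was 221 with an exact 95% counting interval of 136 to 387, which covers counting error only.

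Mapoly0169s0004 showed the same form at a lower count. It had 6.18, 7.32 and 6.69 CPM in WT, 6.57, 7.14 and 6.40 CPM in OX, and 0, 0.0347 and 0.0696 CPM in KO. Its 3 pairs in KO equal the limit that a count of 0 allows, against 533 pairs in WT. On the same scaling the WT sum was 192 times the KO sum (exact 95% counting interval 65.4 to 935). It was the single member at or under 3 pairs over the KO libraries, and its OX and WT means, 6.71 ± 0.386 and 6.73 ± 0.571 CPM (SD, n = 3), were the nearest to each other among the 8 most lowered members.

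The next 6 members kept a measurable level in every KO library. Mapoly0003s0312 had 66.1, 61.2 and 66.2 CPM in WT and 2.65, 3.61 and 3.17 CPM in KO. Its OX libraries, at 92.4, 85.8 and 92.4 CPM, all lay above WT. This gene thus stood 20.5-fold lower in KO and 1.40-fold higher in OX.

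Mapoly0034s0025 had the opposite leaning in OX. Its WT libraries held 7.75, 12.0 and 9.76 CPM, its OX libraries 6.57, 7.18 and 7.35 CPM, and its KO libraries 0.767, 0.693 and 0.800 CPM. All OX libraries were below all WT libraries, and KO kept 7.66% of the WT mean. Without WT replicate 1 its OX level left the band and it was no longer a member.

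Mapoly0042s0080 overlapped between WT (7.30, 8.08 and 8.72 CPM) and OX (7.55, 8.22 and 7.63 CPM), and had 0.767, 0.936 and 0.905 CPM in KO. Mapoly0050s0016 had 16.8, 14.999 and 14.96 CPM in WT, 20.1, 17.9 and 20.7 CPM in OX and 2.65, 2.84 and 2.47 CPM in KO. The replicates of each genotype were close in both genes, and the KO means were 9.24-fold and 5.87-fold lower than WT. The remaining pair of these 6, Mapoly0058s0066 and Mapoly0058s0067, carry adjacent numbers and are described with their scaffold.

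**Figure D2:**
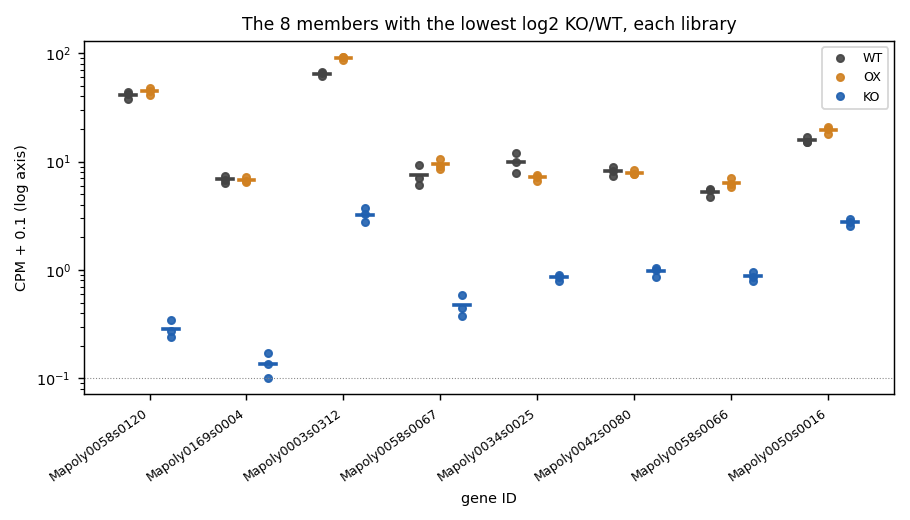
CPM + 0.1 (log axis) in each library for the 8 members with the lowest log2 KO/WT; points are libraries, short lines are means of 3, and the dotted line marks 0 CPM. KO points lie below all WT and OX points in each gene, and those of Mapoly0169s0004 reach the line.

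Some members with many counts were lowered in part. Mapoly0007s0041, with most counts, had 211, 211 and 261 CPM in WT, 278, 302 and 326 CPM in OX and 87.7, 88.2 and 97.4 CPM in KO, and 40.1% of the WT level remained. Mapoly0076s0031 had 137, 139 and 158 CPM in WT, 200, 182 and 191 CPM in OX and 50.8, 61.5 and 62.1 CPM in KO. In both genes the 3 genotypes did not overlap and were ordered KO, WT, OX.

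Mapoly0012s0165 differed from these in OX, where it had 120, 104 and 127 CPM, around its WT values of 113, 109 and 108 CPM. Its KO libraries held 29.1, 27.5 and 29.5 CPM, or 26.1% of WT. Mapoly0091s0043 likewise overlapped between WT (85.6, 84.0 and 69.1 CPM) and OX (92.5, 79.3 and 80.4 CPM), with 36.4, 33.1 and 38.4 CPM in KO. Of the 6 members with most counts in WT, Mapoly0003s0312 was thus the only one more than 4-fold lower in KO.

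With edgeR's quasi-likelihood test over all 14813 genes that passed the filter on low counts, all 57 members were tested and 56 were called lower in KO than in WT at an adjusted p under 0.05. Over all genes tested 7.64% were called lower and 19.2% had all KO libraries below all WT libraries, and since the rule used this contrast nothing is read from the members' count. Standard errors of their fitted log2 fold changes ran from 0.0630 to 0.593, with a median of 0.165. The exception was Mapoly0009s0099 (log2 fold change -1.06 ± 0.430 SE, adjusted p = 0.139). It had 2.90, 5.31 and 3.87 CPM in WT and 2.02, 1.248 and 2.40 CPM in KO, and its OX libraries were split, at 1.92, 1.80 and 5.53 CPM.

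How clear the separation was differed among members. In 35 of the 57, the lowest WT library was at least 2-fold above the highest KO library, and in 6 this ratio was under 1.5. It was smallest, at 1.02, in Mapoly0069s0040, which had 15.3, 15.0 and 4.50 CPM in WT and 3.17, 4.40 and 1.95 CPM in KO. Its low WT value came from replicate 3, while its OX libraries, at 15.4, 13.5 and 11.7 CPM, resembled WT replicates 1 and 2. This member lost its call in KO against WT when WT replicate 1 or 2, or KO replicate 1 or 3, was left out (adjusted p = 0.0503 to 0.0664 in edgeR), while its log2 fold change was -1.83 to -1.58 in these fits, beside -1.84 with all libraries.

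Mapoly0057s0079 was the most variable member in WT, with 0.699, 0.446 and 1.99 CPM, and had 0.279, 0.381 and 0.244 CPM in KO. Its WT mean rests on replicate 3. Without that library the fitted log2 fold change in KO against WT moved from -1.77 to -0.91 (adjusted p = 0.107 in edgeR), and the gene no longer met the rule. The call was also lost without any one OX library (adjusted p = 0.0555 to 0.0611), without any one KO library (0.0845 to 0.121) and with the WT and KO libraries alone (0.0819), where the log2 fold change was -1.99 to -1.63. In KO, the most variable members besides Mapoly0169s0004 were led by Mapoly0054s0119, with 0.349, 0 and 0.348 CPM against 1.502, 1.2499 and 1.08 CPM in WT; it lost its call without WT replicate 1 or 2 (adjusted p = 0.0582 in edgeR for each), with log2 fold changes of -2.29 and -2.44 beside -2.43 with all libraries.

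The spread within genotypes, which the rule did not use for OX, had a median SD of 10.4% of the mean in WT, 8.50% in OX and 13.1% in KO over the members. Over all 12303 genes kept with at least 1 CPM in WT these medians were 6.34%, 5.26% and 5.76%. Among genes between 1 CPM and the members' median level of 8.84 CPM in WT, they were 12.4%, 11.4% and 11.4%, and for the members in this range 12.0%, 14.8% and 20.2%. In this range the members' value was thus close to that of other genes in WT and above it in both OX and KO. The range is set on WT level only, and the rule made the members at least 2-fold lower in KO. The KO values are therefore not compared at a like number of counts, and nothing is read from them. The differences were not tested.

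The band in the rule leaves room for modest changes in OX. The OX mean was above the WT mean in 39 members (68.4%) and below it in 18, with a median log2 OX/WT of 0.22. Of the 11045 genes kept with at least 1 CPM that lay inside the same band, 67.1% had a higher mean in OX, with a median of 0.07. These values, and the library placements below, use column totals. Over all genes tested, the median fitted log2 OX/WT was 0.0609 with library size alone and 0.00994 with TMM scaling. The lean of genes at large towards OX thus depended on the scaling. In 33 members the OX and WT libraries overlapped, in 21 all OX libraries were above all WT libraries and in 3 all were below, where 27.5% and 16.1% of all genes tested were so placed.

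By edgeR's test, 17 of the 57 members were called in OX against WT, beside 24.8% of all genes tested. Of these, 14 were higher, beside 10.5% of all genes, and 3 lower, beside 14.3%. The band was part of the rule and the WT libraries are shared with the KO comparison, so these counts describe the members and support nothing. The count was 10 without OX replicate 1 and 11 without OX replicate 3. Over all genes the calls fell as well, from 3667 to 3058 and 2747.

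The 3 members called lower were Mapoly0034s0025, Mapoly0008s0097 and Mapoly0023s0114. The call of Mapoly0034s0025 (adjusted p = 0.0215 in edgeR) was lost without WT replicate 2 (0.0742, log2 fold change -0.36) and without any one OX library (0.0520 to 0.0739, log2 fold changes of -0.56 to -0.49). Mapoly0008s0097 had 19.9, 18.2 and 20.8 CPM in WT, 13.1, 13.8 and 13.9 CPM in OX and 5.54, 5.76 and 5.95 CPM in KO. Mapoly0023s0114 had 2.72, 2.90 and 3.03 CPM in WT, 2.03, 2.11 and 2.13 CPM in OX and 1.36, 1.32 and 1.39 CPM in KO. In both the genotypes were ordered WT, OX, KO with no overlap, so the fall in KO was accompanied by a smaller one in OX.

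Among the 14 called higher in OX, Mapoly0009s0013 and Mapoly0173s0023 lay nearest to the upper edge of the band. Mapoly0009s0013 had 8.14, 9.33 and 11.2 CPM in WT, 13.1, 13.6 and 15.4 CPM in OX and 3.35, 2.88 and 3.79 CPM in KO. Mapoly0173s0023 had 9.29, 9.78 and 8.96 CPM in WT, 13.8, 13.0 and 14.5 CPM in OX and 3.94, 4.20 and 4.98 CPM in KO. Both genes thus sat at opposite sides of WT in OX and KO, like Mapoly0007s0041 and Mapoly0076s0031 above. The OX call of Mapoly0009s0013 was lost without OX replicate 3 (adjusted p = 0.0574 in edgeR, log2 fold change 0.44). That of Mapoly0076s0031 was lost without WT replicate 2 (0.0514, 0.33), while Mapoly0007s0041 and Mapoly0173s0023 kept theirs. Mapoly0009s0013 and Mapoly0173s0023 each left the set in 2 of the 9 runs without a library.

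Set directly against each other, all KO libraries were below all OX libraries in 55 members, where 33.7% of all genes tested were. By edgeR's test with TMM scaling 54 members were called higher in OX than in KO, beside 15.6% of all genes (2318 genes). When library size alone was used, 55 members and 3649 genes were called. The members not called were Mapoly0009s0099, Mapoly0053s0045 and Mapoly0068s0033. Mapoly0053s0045 had 5.24, 10.5 and 11.5 CPM in WT, 5.22, 4.71 and 9.83 CPM in OX and 4.81, 3.22 and 3.34 CPM in KO. Its replicate 1 was low in WT and close to KO. The limits on KO/WT and OX/WT in the rule largely fix that OX lies above KO, so nothing is read from these counts.

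The members near the edges of the rule show how little separates them from genes left out. At the edge of KO/WT, Mapoly0097s0049 and Mapoly0023s0114 were inside at -1.02 and -1.04, and Mapoly0123s0031 and Mapoly0044s0096 just outside, at -0.9989 and -0.9974. At the upper OX edge, Mapoly0009s0013 and Mapoly0173s0023 were inside at 0.55, and Mapoly0079s0060 and Mapoly0071s0094 outside at 0.61. At the lower OX edge, Mapoly0070s0069 (-0.55) and Mapoly0008s0097 (-0.53) were inside, and Mapoly0132s0042 and Mapoly0008s0128 outside at -0.60. For the WT mean, Mapoly0057s0079 (1.04 CPM) and Mapoly0058s0071 (1.08 CPM) were inside, and Mapoly0024s0025 (0.926 CPM) and Mapoly0033s0100 (0.893 CPM) outside. Another 4 genes met every criterion except that a KO library reached a WT library.

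**Figure D3:**
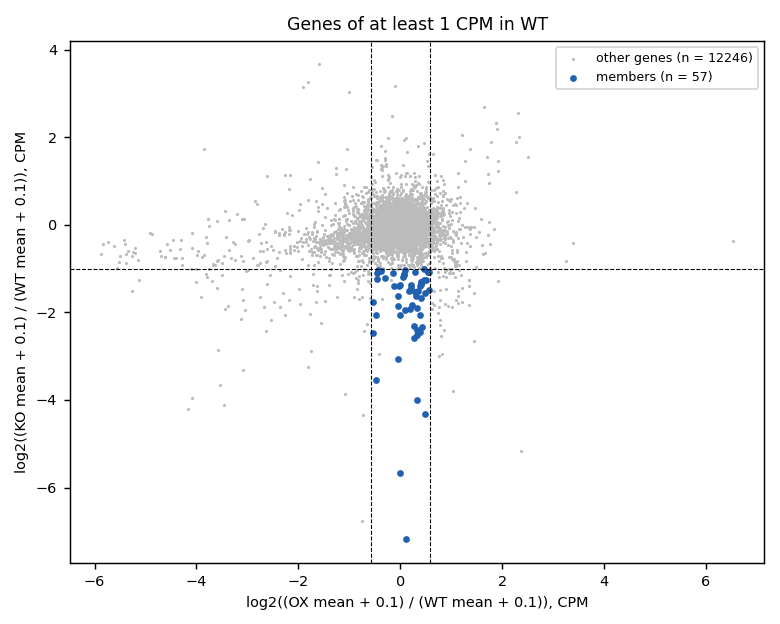
Log2 KO/WT against log2 OX/WT for the 12303 genes kept with at least 1 CPM in WT; dashed lines are the rule's edges, blue points the 57 members and grey points the other 12246 genes. Members fill the region under the lower edge between the vertical lines, most of them between -1 and -2.

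By the same criteria for KO, 185 genes were lowered whatever their level in OX. The members are 57 of them (30.8%), beside 89.8% of the 12303 genes kept with at least 1 CPM whose OX level lay within the band. In 77 the OX mean was at least 1.5-fold below WT, and in 51 at least 1.5-fold above it. The WT libraries that sorted these classes by OX/WT also enter KO/WT, so these shares and the values below are described only. The classes also differed in WT level, with a median WT mean of 8.84 CPM in the members. It was 3.5 CPM in genes also lower in OX and 13.0 CPM in genes higher in OX. The median log2 KO/WT was -1.51 in the members, -1.44 in genes also lower in OX and -1.51 in genes higher in OX. At least 4-fold lower in KO were 16 members (28.1%), 15 genes (19.5%) of the class lower in OX and 10 genes (19.6%) of the class higher in OX. The differences between classes were not tested.

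The rule made no use of where a gene lies. Numbers in the IDs name a scaffold and a gene on it. The members came from 39 of the 260 scaffolds kept, 28 of which held 1 member, 7 held 2, 3 held 3 and Mapoly0058 held 6. Thus 29 of the 57 members shared a scaffold with another. Scaffolds can be large, with 216 kept genes of at least 1 CPM on Mapoly0003. How many of any 57 genes would share a scaffold was not counted, so nothing is read from this.

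Mapoly0058, singled out after the values were seen, has 120 IDs in the table, 83 of them with at least 1 CPM in WT. Of these, 7 (8.43%) were at least 2-fold lower in KO with no overlap, 6 of them members, which was the highest share among the 92 scaffolds with 50 or more such genes; the median share was 1.26%. No gene of this scaffold was at least 2-fold higher in KO without overlap. The share of such genes over all scaffolds is not given here, so nothing is read from their absence. The 7 genes carried numbers from 66 to 120, the latter being Mapoly0058s0120, the most lowered member of all. The other 35 of the 42 genes of at least 1 CPM in this stretch did not meet the criteria for KO, and their log2 KO/WT ran from -0.77 (Mapoly0058s0068) to 0.93 (Mapoly0058s0098). Over the whole scaffold the median log2 KO/WT was -0.07 and the median log2 OX/WT 0.09.

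Mapoly0058s0067 had 7.02, 6.03 and 9.13 CPM in WT, 10.5, 9.01 and 8.50 CPM in OX and 0.488, 0.277 and 0.348 CPM in KO. Beside it, Mapoly0058s0066 had 5.41, 4.60 and 5.47 CPM in WT, 6.91, 6.14 and 5.70 CPM in OX and 0.697, 0.867 and 0.765 CPM in KO. They kept 5.02% and 15.0% of their WT means in KO. The genes on either side, Mapoly0058s0065 and Mapoly0058s0068, were lower in KO by less than the rule asks, at log2 KO/WT of -0.60 and -0.77.

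The other members on this scaffold were less lowered. Mapoly0058s0071 had 0.838, 1.16 and 1.26 CPM in WT, 0.676, 0.971 and 1.33 CPM in OX and 0.314, 0.381 and 0.348 CPM in KO. Mapoly0058s0111 had a WT mean of 1.44 ± 0.146 and a KO mean of 0.487 ± 0.103 CPM, and Mapoly0058s0118 had 12.6 ± 0.727 and 5.90 ± 0.578 CPM (SD, n = 3 each). The lowered gene that was no member, Mapoly0058s0101, had 6.77 ± 0.264 CPM in WT, 2.32 ± 0.0782 CPM in KO and 10.8 ± 1.52 CPM in OX (SD, n = 3), which is above the band.

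**Figure D4:**
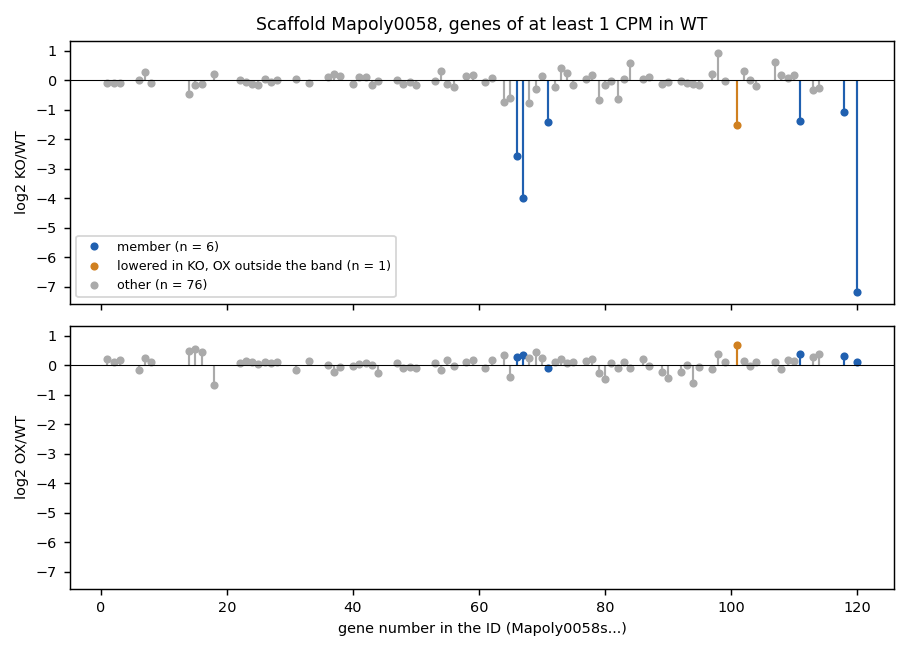
Log2 KO/WT (top) and log2 OX/WT (bottom) of the 83 genes of scaffold Mapoly0058 with at least 1 CPM in WT, against the gene number in the ID; blue marks the 6 members and orange Mapoly0058s0101. Between numbers 66 and 120 the lowered genes are interspersed with genes that did not meet the criteria, some lower and some higher in KO.

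Adjacent numbers joined 8 members in 4 pairs, on Mapoly0041, Mapoly0043, Mapoly0046 and Mapoly0058. Mapoly0041s0135 had 1.61, 2.05 and 1.95 CPM in WT and 0.418, 0.416 and 0.278 CPM in KO, and Mapoly0041s0136 had 3.49, 4.02 and 5.54 CPM in WT and 0.872, 0.589 and 0.765 CPM in KO. In OX they had 2.47 ± 0.425 and 5.50 ± 0.408 CPM, beside 1.87 ± 0.234 and 4.35 ± 1.07 CPM in WT (SD, n = 3). Both means were higher in OX, but the OX and WT libraries overlapped. Neither gene was called in OX against WT (adjusted p = 0.219 and 0.261 in edgeR). These neighbours kept nearly the same share of WT in KO, 19.8% and 17.1%.

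The pair on Mapoly0043 was alike in this respect. Mapoly0043s0074 had 3.95, 3.30 and 2.82 CPM in WT and 0.941, 1.42 and 1.32 CPM in KO, and Mapoly0043s0075 had 19.7, 18.1 and 16.6 CPM in WT and 6.27, 5.55 and 5.05 CPM in KO. They kept 36.6% and 31.0% of WT, while the next gene, Mapoly0043s0076, had 38.3 ± 2.40 CPM in WT and 43.1 ± 3.40 CPM in KO (SD, n = 3).

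On Mapoly0046, the pair differed widely in counts but not in the share left. Mapoly0046s0032 had 151, 137 and 145 CPM in WT, 206, 182 and 189 CPM in OX and 56.6, 58.4 and 54.6 CPM in KO. Mapoly0046s0033 had 2.51, 2.54 and 3.24 CPM in WT, 3.12, 3.57 and 2.94 CPM in OX and 1.08, 0.832 and 0.940 CPM in KO. The share left in KO was 39.2% and 34.4%, and the flanking genes Mapoly0046s0031 and Mapoly0046s0034 had log2 KO/WT of 0.14 and -0.07. How reads were shared between overlapping or near-identical genes is not given in the sources used here, so a pair may not be 2 independent measurements.

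**Figure D5:**
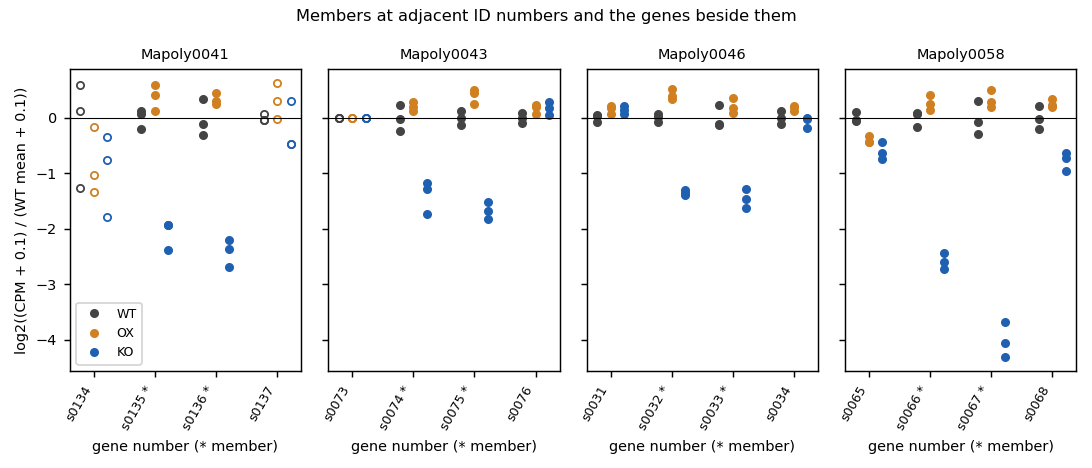
Log2 of CPM + 0.1 over the WT mean + 0.1 in each library for the 4 pairs of members at adjacent numbers (asterisks) and the genes beside them; open circles are genes under 1 CPM in WT. Blue KO points fall below 0 for both members of a pair, and on Mapoly0043 and Mapoly0046 the measured flanking genes stay near 0.

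Beyond these pairs, genes next to members had a median log2 KO/WT near that of genes at large. Of the 62 other genes of at least 1 CPM whose number was next to that of a member, 2 (3.23%) were at least 2-fold lower in KO without overlap, beside 1.504% of the 12303 genes kept. The 185 genes behind the latter share include the 57 members, so the share among non-members is lower. With 2 genes, nothing is read from this difference. The median log2 KO/WT of the 62 genes was -0.05, beside -0.02 over the 12303. In 19.4% of the 62 all KO libraries were below all WT libraries, beside 20.1%. At a distance of 2 numbers, 1 of 77 genes (1.30%) was lowered in this way.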

How the data were processed

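RNA was sequenced from 9 thallus samples, 3 per genotype, grouped by the labels. The deposited file holds whole-number counts for each gene. Per the submitters' processing notes, STAR 2.5.1b and featureCounts 1.5 were used. Their settings, any use of strand and the build: not given in the sources used here. Row names refer to gene models version 3.1. All 173583 counts were even, so 1 read pair appears to count as 2, and pairs are counts divided by 2. Columns of other samples numbered 0. A count of 0 allows up to 3 pairs, or 0.104 to 0.134 CPM.

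CPM came from column totals, as the rule on members states. Counts were tested with edgeR 4.0.16 in R 4.3.3 (filterByExpr, TMM factors of 0.958 to 1.04, quasi-likelihood F test, all 9 libraries in 1 fit, Benjamini-Hochberg adjustment over 14813 genes). DESeq2 1.42.0 and other settings were alternatives. The tests were tried on simulated counts. The members and lists were chosen with earlier results of these data known. Lists by product name could not be applied, as 0 IDs matched the table of assembly MpTak2_v7.1 (18391 rows). IDs named are the 8 lowest in KO/WT, the 6 with most WT counts, those at the rule's edges, at adjacent numbers, at 3 pairs or fewer in KO, and the 2 most variable in WT and in KO. Mapoly0009s0099, Mapoly0053s0045, Mapoly0068s0033 and the genes of Mapoly0058 outside this were named after their values were seen. P-values cover the spread between replicates within a genotype, and the sample titles do not tell whether these came from different lines.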

Additional observations from a re-analysis of the deposited data

How the results depend on the processing

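Membership depended on the rule's settings. With TMM scaling 57 genes met the rule, 54 of them the same; with pseudocounts of 0.5 and 1 CPM 50 and 39 did. A WT minimum of 5 CPM left 37, and a narrower OX band left 26. Members at adjacent numbers were 8 as reported, 4 with a pseudocount of 1 CPM, 2 with the 5 CPM minimum and 0 with the narrower band, which have fewer members to pair. Leaving out 1 library gave 57 to 71 members, and 40 of the 57 stayed in all 9 such sets; the median log2 KO/WT was -1.51 to -1.37 and adjacent members 8 to 8. It gave 53 to 56 members called lower in KO, 10 to 18 called in OX against WT and 53 to 55 higher in OX than KO, and over all genes 728 to 1144, 2680 to 3667 and 1745 to 2509. With the replicate number as a block, all 57 members were called lower in KO, and 1781 genes in all against 1132. In OX against WT, 21 members and 5158 genes in all were called with the block, against 17 and 3667 without it. Numbers do not pair the libraries by the labels, and deviations of same-numbered libraries correlated at -0.02 to 0.48, above 0.1 in 7 of 9 pairs. With library size alone, 3649 genes were higher in OX than KO, against 2318. Of 448 recomputed KO/WT fold changes of named members none changed direction and 14 lost the call. Of 448 for OX/WT, 27 changed their call and 7 changed direction, none of them called in that setting, each when a library was left out: Mapoly0012s0165 (-0.0209 to 0.126, lowest without OX replicate 3), Mapoly0057s0079 (-0.0218 without WT replicate 2 to 1.18 without WT replicate 3, where it was called), Mapoly0169s0004 (-0.111 to 0.0135, highest without WT replicate 2), Mapoly0069s0040 (-0.216 to 0.432, lowest without WT replicate 3), Mapoly0058s0071 (-0.436 to 0.0391, highest without OX replicate 1) and Mapoly0091s0043 (-0.0627 without WT replicate 3, -0.0430 without OX replicate 1, up to 0.0881). The cause of these moves was not tested.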

Other observations

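The rule on IDs alone kept out 4 further genes that met every criterion on values. MapolyY_A0055, a Y-chromosome ID, had 115 read pairs summed over the WT libraries, 183 in OX and 0 in KO, where a count of 0 allows up to 3 pairs. Mapoly2227s0001, the only ID of its scaffold, had 83 pairs in WT, 57 in OX and 1 in KO. Scaled by library totals, its WT sum was 89.8 times that in KO (exact 95% counting interval 15.7 to 3590). MapolyY_A0055 and Mapoly2227s0001 had log2 OX/WT of 0.56 and -0.55, near the edges of the band, and their OX libraries did not overlap with WT. Mapoly3701s0001 and Mapoly0282s0002 were lowered in part, from 7.37 ± 1.59 to 2.71 ± 0.112 CPM and from 10.4 ± 0.442 to 4.38 ± 0.239 CPM (SD, n = 3 libraries each).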
